A study of Mus musculus with 24 samples.

Results

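The dorsal root, through which the afferent nerve (AN) fibres enter the spinal cord, was compared between 5 weeks of age (5 W) and the day of birth (P0). The comparison takes the arrays labelled AN at these stages, 3 at P0 and 3 at 5 W, from a series of 24 arrays that also holds AN fibres at 1 W and 3 W and efferent nerve (EN, ventral root) fibres at all 4 ages. All mice were C57BL/6, with no mutation or treatment in the labels. The fibres were those of lumbar levels L4-L6 (the labels name the spinal cord at these levels as the tissue and afferent nerve fibres as its subtype), and the fibres of several mice were pooled by nerve and age, with 3 experiments for each group. Mice of both sexes were used in the study, and the sexes in each pool are not given in the sources used here. Each array was hybridised with Cy3-labelled cRNA of 1 sample. Levels are log2 values that the authors had quantile normalized, so that a difference of 1 is a 2-fold change, and a change is always the 5 W mean minus the P0 mean with its standard error (SE).

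Dorsal roots hold the central branches of sensory axons, whose cell bodies and most of whose RNA lie outside the root in the dorsal root ganglion. Most of the RNA of a root therefore comes from Schwann cells, endoneurial fibroblasts, vessels, resident macrophages and the sheath. Around birth Schwann cells divide, sort axons and begin to wrap the larger ones, and the membrane of the myelin sheath is built over the following weeks from structural proteins, cholesterol and galactolipids. Where a root joins the spinal cord, Schwann cells give way to oligodendrocytes and astrocytes. In tissue samples of this kind, fewer cells of a type and less RNA per cell cannot be told apart.

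Arrays of one stage correlated with each other at Pearson's r of 0.981 to 0.984 at P0 and 0.959 to 0.976 at 5 W over the probes tested, against 0.872 to 0.914 between the stages. The share of gene spots well above background lay between 55.1% and 71.3% at P0 and between 62.3% and 70.1% at 5 W, and no spot was saturated. The 17 myelin protein genes listed as Schwann cell markers were above background on each of the 6 arrays. Some arrays stood apart in genes of other cell types. Skeletal muscle markers had a mean log2 level of 11.19, 9.76 and 9.51 on the 3 arrays at P0 and of 12.19, 8.97 and 8.70 at 5 W, so that replicate 1 was the highest at both stages. Adipocyte markers averaged 8.37, 7.55 and 10.58 at P0 and 7.04, 7.12 and 6.38 at 5 W, with P0 replicate 3 far above the other arrays. Sensory neuron genes averaged 9.39, 10.12 and 8.97 at P0 and 8.97, 8.40 and 6.98 at 5 W, the lowest value being that of 5 W replicate 3. Oligodendrocyte markers averaged 7.70, 7.57 and 7.71 at P0 and 9.72, 10.16 and 8.90 at 5 W, and astrocyte markers 9.86, 9.94 and 10.04 against 10.90, 11.47 and 10.52, with 5 W replicate 2 highest in both lists. Interferon-stimulated genes averaged 8.77, 9.50 and 8.94 at P0 and 11.07, 9.90 and 11.25 at 5 W, with 5 W replicate 2 lowest at that stage.

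**Figure D1:**
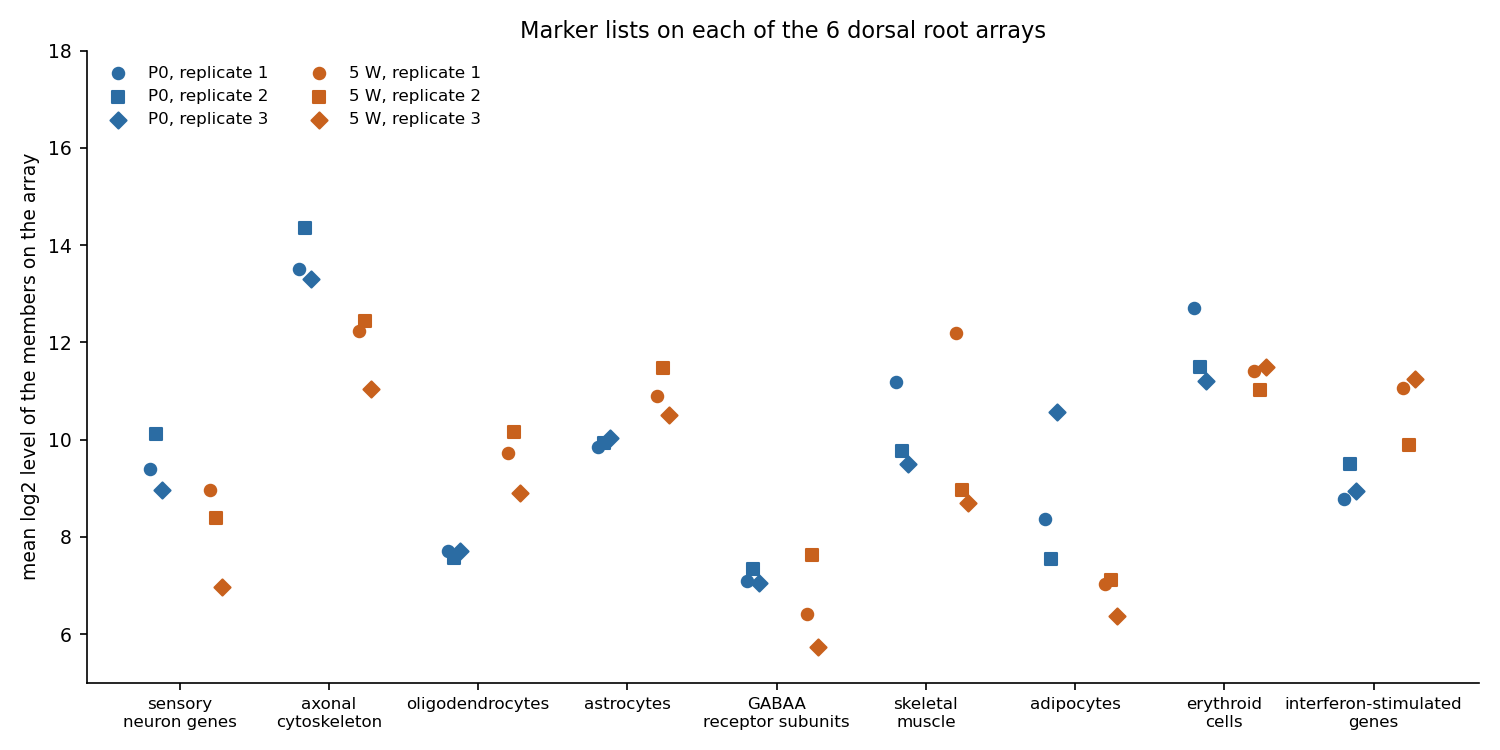
Mean log2 level of the members on the array (y axis) of 9 gene lists (x axis) on each of the 6 dorsal root arrays, with P0 in blue, 5 W in orange and the replicate number given by the symbol. Replicate 1 was the highest array of its stage in skeletal muscle markers, P0 replicate 3 stood at 10.58 in adipocyte markers, and 5 W replicate 3 stood at 6.98 in sensory neuron genes.

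Of 56605 gene probes, 34274 (60.55%) had a signal clearly over background in every replicate of either stage and were tested with limma, and a probe was called at a Benjamini-Hochberg adjusted p below 0.05 with a fold change above 2. In total 9167 probes were called (26.7% of those tested), 5046 higher at 5 W and 4121 lower. With the brightest probe of each gene, 14979 genes were tested, of which 2328 were higher (15.5%) and 1765 lower (11.8%), around a median change of 0.02 over all genes. These shares are the background for every list described here. The change exceeded 4-fold in 748 rising and 671 falling genes and 16-fold in 98 and 93, and the P0 and 5 W levels did not overlap for 8859 genes (59.14%). Of the 4 slides that held these arrays, 1 held both stages. A fit restricted to the 3 arrays of that slide called 5075 probes, with the spread taken from its P0 pair and its lone 5 W array assumed to vary alike. Where a gene was above background on only some arrays of a stage, that number is given, since its change then rests in part on levels that were not measured, and the change with normexp background correction, an alternative that shrinks dim signals, is given where the log2 changes differed by over 1.5 times.

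Myelin genes rose. Of 17 genes for compact myelin and Schwann cell myelin proteins, 12 were higher at 5 W and none lower, with a median change of 1.91. Mbp, which holds the cytoplasmic faces of the myelin membrane together, measured 12.96, 12.66 and 13.42 at P0 and 16.67, 17.13 and 17.07 at 5 W, a 15.4-fold rise (3.94 ± 0.25, adjusted p = 0.000132). Drp2, a scaffold that binds periaxin where the Schwann cell membrane lies against the myelin sheath, rose 79.8-fold, from 10.03, 8.89 and 9.37 to 15.54, 16.07 and 15.63 (adjusted p = 6.96e-05). The groups lay far apart in both genes. Ncmap, a myelin membrane protein, rose 10.2-fold (14.99, 13.62 and 14.51 against 17.58, 17.58 and 18.03), and the gap junction protein Gjb1 rose 9.27-fold (12.40, 10.92 and 11.83 against 15.13, 14.79 and 14.87). Pmp22, a protein of compact peripheral myelin, moved less at its brightest probe, from 17.77, 17.10 and 17.71 to 18.37, 18.45 and 18.58 (0.94 ± 0.22, adjusted p = 0.0165, under the 2-fold limit), while another probe of the gene was called higher.

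The enzymes that supply the lipids of the sheath rose with the proteins. In the list of sterol synthesis and uptake 18 of 24 genes tested were higher and none lower, with a median change of 1.86. Sc5d, an enzyme of the last steps of cholesterol synthesis, rose 6.93-fold from 11.97, 11.36 and 11.55 to 14.57, 14.34 and 14.34 (adjusted p = 0.000218). Hmgcs1, which makes the substrate of HMG-CoA reductase, rose 5.50-fold (15.42, 15.04 and 15.00 against 17.69, 17.35 and 17.79), and Hsd17b7, Msmo1 and Fdps rose 5.47-fold, 4.59-fold and 3.56-fold. At 1 W the mean level of Hmgcs1 was already 17.57, and that of Fdps 16.13, close to the 5 W means of 17.61 and 16.13.

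In the list of myelin fatty acid and galactolipid synthesis 13 of 20 genes were higher and none lower (median 1.33). Ugt8a, which makes galactosylceramide, rose 13.8-fold from 12.06, 11.00 and 12.05 to 15.55, 15.70 and 15.21 (adjusted p = 0.000353). Fa2h, which hydroxylates the fatty acids of these lipids, rose 8.04-fold (14.14, 13.08 and 13.72 against 16.53, 16.76 and 16.67). The elongases Elovl7 and Elovl1 rose 5.76-fold and 3.76-fold, and the desaturase Scd2 3.00-fold. The sphingolipid hydroxylase gene Degs2 measured 4.91, 3.66 and 2.53 at P0 and 10.49, 10.51 and 10.38 at 5 W, and was above background on 1 of 3 arrays at P0. It was called higher, but the size of its rise was not measured (6.76 as fitted, 4.17 with normexp).

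**Figure D2:**
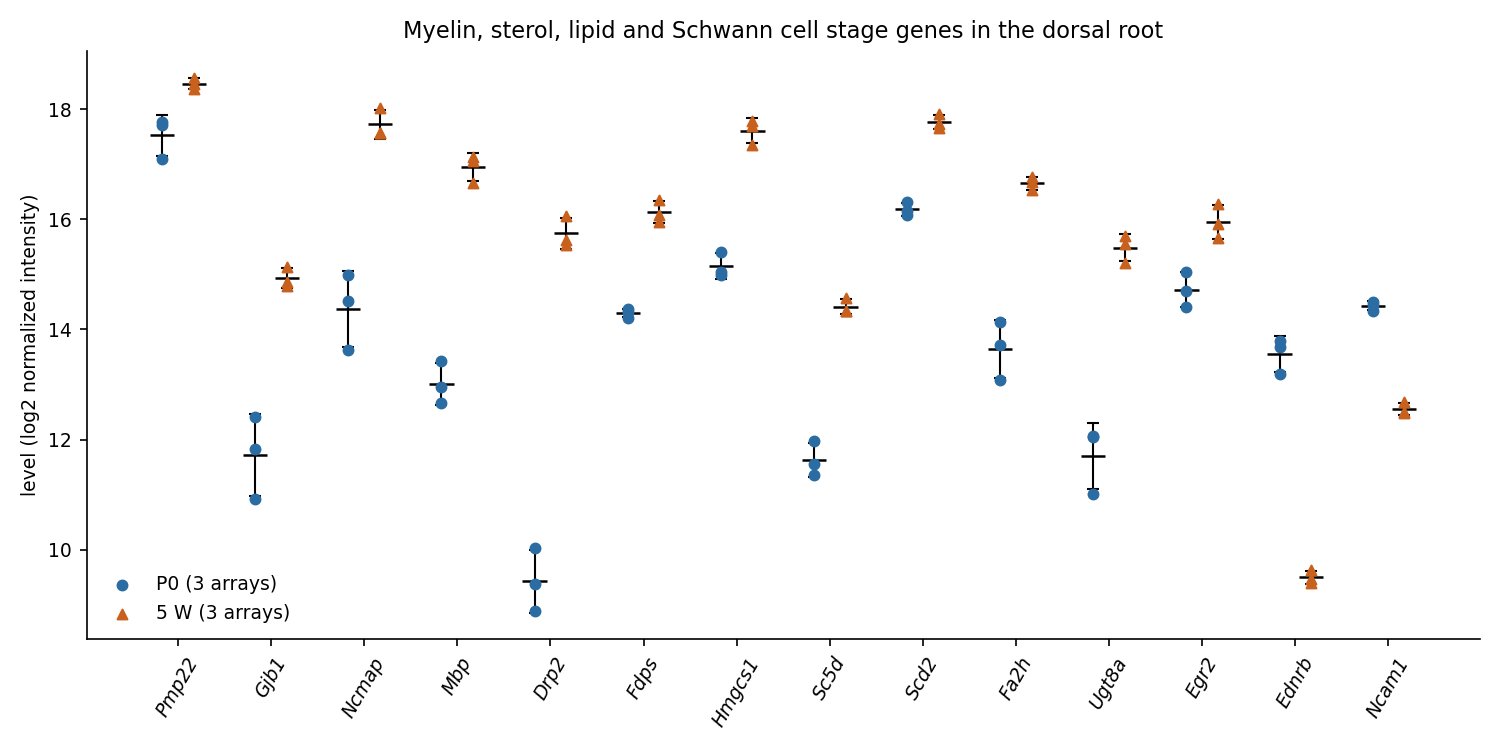
Log2 normalized intensity (y axis) of 14 myelin, sterol, lipid and Schwann cell stage genes (x axis) on each dorsal root array at P0 (blue circles, 3 arrays) and 5 W (orange triangles, 3 arrays), with horizontal bars for the mean and error bars for 1 SD. Mbp and Drp2 rose from means near 13 and 9 to means near 17 and 16, whereas Pmp22 differed by 0.94 and Ednrb and Ncam1 fell. Levels of different genes come from different probes and are not comparable with each other.

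Among 14 transcription factors of myelination, 4 were higher and 3 lower (median -0.58). Egr2, the factor that drives the myelin programme, rose 2.34-fold (15.05, 14.41 and 14.70 against 15.91, 15.66 and 16.27, adjusted p = 0.00854). Its partner Sox10 rose 2.19-fold and the Egr co-factor Nab2 3.33-fold, while Nr2f1 fell by 1.35 and the fetal chromatin protein gene Hmga2 by 4.03. Genes of immature and repair Schwann cells were called lower more often than higher, with 2 higher and 8 lower of 19 tested (median -0.84). Ednrb, an endothelin receptor of Schwann cell precursors, fell by 4.05 ± 0.21 on the log2 scale, from 13.19, 13.68 and 13.79 to 9.63, 9.47 and 9.40. The matrix protein gene Tnc was lower (8.98, 9.26 and 9.06 against 6.51, 3.96 and 5.04), with 2 of 3 arrays above background at 5 W and a change of -3.93, or -2.43 with normexp. Fabp7 fell by 2.97 and the adhesion molecule gene Ncam1 by 1.87 (14.34, 14.50 and 14.44 against 12.50, 12.49 and 12.67). Dhh, the hedgehog ligand that Schwann cells send to the perineurium, stood at 15.49, 15.03 and 15.29 against 16.34, 16.04 and 16.21, a 1.90-fold difference that stayed under the limit.

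Neuregulin and adhesion G protein receptor signalling, through which axons and matrix instruct Schwann cells to myelinate, had 2 genes higher and 2 lower of 13 (median 0.01). Adam10, a protease that sheds membrane proteins, rose 3.45-fold and the lysophosphatidic acid receptor gene Lpar1 fell by 1.25. Nrg1, the axonal ligand, fell by 1.83 (9.12, 10.10 and 9.10 against 8.04, 7.98 and 6.82), while its receptors Erbb2 and Erbb3 changed by 0.12 (adjusted p = 0.644) and -0.32 (adjusted p = 0.138). Of 23 genes of nodes and paranodes, the gaps between myelin segments and the junctions that flank them, 4 were higher and 1 lower (median -0.15). Nfasc, which codes for the neurofascins of axon and glia, rose 15.7-fold from 11.24, 10.33 and 10.50 to 14.74, 14.63 and 14.60 (adjusted p = 0.000148). Gliomedin (Gldn), the Schwann cell ligand that clusters nodal channels, rose 7.52-fold, and the juxtaparanodal potassium channels Kcna1 and Kcna2 5.98-fold and 3.31-fold, while Epb4.1l3 fell by 1.81. Without 5 W replicate 2 this list had 4 genes higher and 7 lower.

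The cell cycle genes fell almost as a whole. Of 49 genes of the cell cycle and DNA replication that were tested, 48 were lower at 5 W and none higher, with a median change of -3.39. The exception was Orc1, at 0.66 at its brightest probe, whose other tested probes were called lower. Cdk1, the kinase that drives entry into mitosis, measured 11.15, 11.52 and 11.51 at P0 and 6.60, 6.50 and 6.60 at 5 W, a 28.4-fold fall (adjusted p = 4.77e-05). Its cyclin Ccnb1 fell 31.1-fold (12.16, 12.40 and 12.23 against 7.67, 6.95 and 7.28), and the phosphatase gene Cdc25c that activates Cdk1 fell 32.2-fold (10.83, 11.01 and 11.03 against 6.27, 5.59 and 6.00). Of the replication genes, Mcm6 of the replicative helicase fell 5.60-fold and the sliding clamp Pcna 2.24-fold (14.15, 14.26 and 14.38 against 13.13, 13.14 and 13.02). The fall of Cdk1 ran through all ages, its mean level being 11.39, 10.32, 8.24 and 6.57 in order of age.

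Promoters of cell cycle genes are known for CCAAT boxes, bound by NF-Y, and for the cell cycle homology element TTTGAA. In the 250 bases before the start of 40 of these genes with a RefSeq promoter, CCAAT was present on either strand in 29 (72.5%), against 34.5% of 27025 promoters of the same length, and TTTGAA in 12 (30%) against 16.3%. The promoters of 2 of the most strongly falling genes are shown (GRCm38.p6, RefSeq, gene strand, 5′ to 3′), with CCAAT and TTTGAA on either strand in capitals.
Ccnb1, chr13:100786487-100786736, minus strand: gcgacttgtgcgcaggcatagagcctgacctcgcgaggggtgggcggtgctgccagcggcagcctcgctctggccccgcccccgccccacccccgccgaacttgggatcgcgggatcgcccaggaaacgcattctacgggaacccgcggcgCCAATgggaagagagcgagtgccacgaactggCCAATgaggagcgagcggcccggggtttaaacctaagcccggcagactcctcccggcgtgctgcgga
Cdk1, chr10:69352913-69353162, minus strand: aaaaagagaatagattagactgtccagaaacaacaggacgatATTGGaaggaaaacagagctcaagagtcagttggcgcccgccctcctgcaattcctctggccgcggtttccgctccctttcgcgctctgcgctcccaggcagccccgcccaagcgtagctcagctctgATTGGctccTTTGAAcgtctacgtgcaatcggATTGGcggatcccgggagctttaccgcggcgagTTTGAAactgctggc
A match to these letters describes the sequence and does not show that a factor was bound.

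Inhibitors of the cyclin dependent kinases did not move together, with 3 of 9 higher and 2 lower. Cdkn1a (p21) rose 6.40-fold (12.47, 11.52 and 12.17 against 14.72, 14.34 and 15.14) and Cdkn1b (p27) 3.05-fold (13.25, 13.02 and 13.09 against 14.47, 15.06 and 14.66). Cdkn1c (p57), an imprinted gene, fell 17.7-fold from 17.07, 16.90 and 17.35 to 12.86, 13.04 and 12.98 (adjusted p = 5.64e-05), and Cdkn2c fell 2.68-fold. The fetal growth and imprinted genes as a group fell in 22 of 26 cases, with none higher and a median of -2.42. H19, an imprinted non-coding RNA, had the largest fall of all genes measured above background on the 6 arrays, 77.5-fold, from 17.20, 17.63 and 17.64 to 11.68, 11.26 and 10.69 (adjusted p = 6.15e-05). Mest fell 25.8-fold (12.55, 12.89 and 13.17 against 8.22, 7.69 and 8.64), and the fetal RNA-binding protein gene Igf2bp3 21.7-fold (11.84, 11.66 and 11.83 against 7.39, 7.50 and 7.12). Sgce, also imprinted, stood at 13.81, 13.87 and 13.71 against 14.78, 14.77 and 14.64 (0.93 ± 0.15). H19 and Mest fell between each pair of neighbouring ages, with means of 17.49, 15.05, 13.21 and 11.21 for H19.

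**Figure D3:**
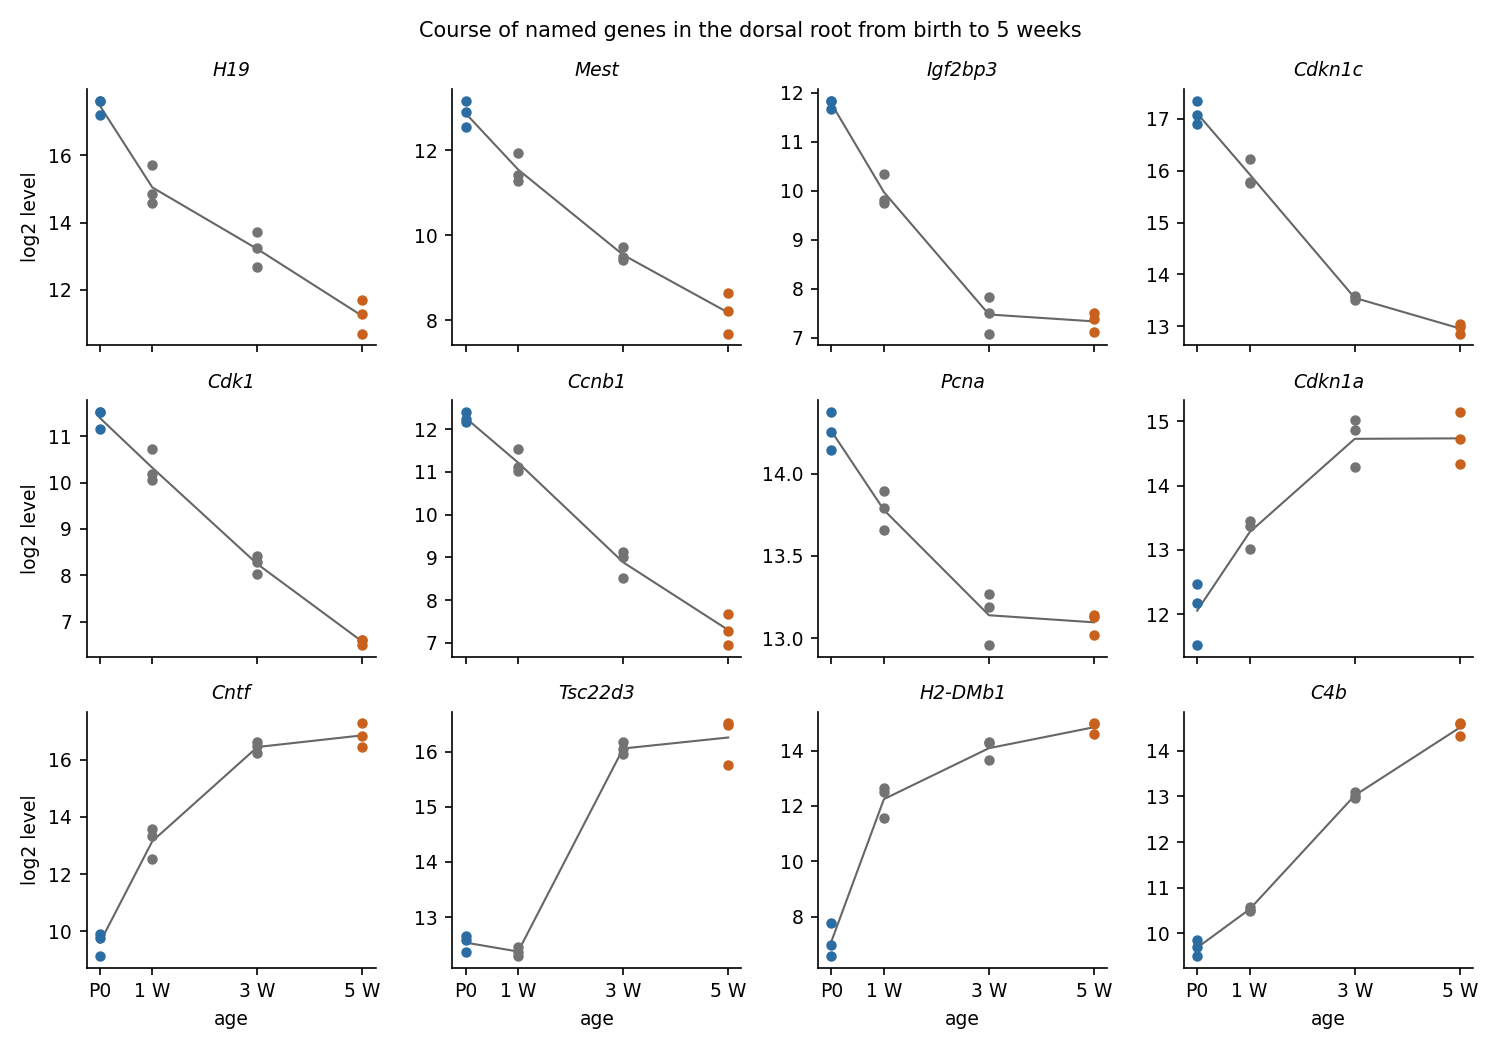
Log2 level (y axis, a separate scale for each gene) of 12 genes in dorsal root fibres at 4 ages from P0 to 5 W (x axis, in weeks), with a point for each of the 3 arrays of an age and a line through the means. Cdk1 and H19 were lower at each later age, whereas Tsc22d3 lay between 12.37 and 12.65 at P0 and close to that at 1 W and reached 15.77 or more at 5 W.

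The largest rises by the naming rule went beyond these lists. H2-DMb1 rose 213-fold (7.76, 6.58 and 6.98 against 14.94, 14.60 and 14.98), and Cntf, the ciliary neurotrophic factor that Schwann cells store, 153-fold (9.90, 9.13 and 9.78 against 16.46, 17.28 and 16.83, adjusted p = 5.36e-05). Fam178b rose 152-fold, Plk5, a polo-like kinase gene, 142-fold, Ccdc37 88.9-fold, Lctl 64.4-fold, the BMP antagonist Chrdl1 60.5-fold and the sialyltransferase St8sia5 58.7-fold. The protease inhibitor Spint1, the spectrin Sptb, Prr15, Slamf9 and Fam107a rose between 49.4-fold and 54.8-fold. Fgf4, a fibroblast growth factor gene, was not above background at P0 and reached 12.77, 12.83 and 12.48 at 5 W, at least 255-fold higher. Them5 (at least 61.4-fold), Cyb5r2 (at least 39.0-fold) and Otop1 (at least 34.9-fold) were likewise above background at 5 W alone among these stages. In all, 88 genes called higher were above background on every 5 W array and on no P0 array, and 59 called lower showed the reverse.

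Of the falls outside the cell cycle and imprinted lists, Stfa2, a stefin of myeloid cells, fell 73.7-fold (11.94, 11.85 and 11.75 against 5.53, 5.66 and 5.74). Stfa1, its neighbour in sequence, left the measured range from 12.80, 12.85 and 12.81, at least 321-fold lower, and probes of such near-identical genes may bind transcripts of each other. Arrdc4 fell 32.5-fold and Postn, periostin of the young extracellular matrix, 27.1-fold. Cdca3, Ska1, Ticrr, Fam64a and Melk, which take part in cell division, fell between 24.8-fold and 32.1-fold, and Ccna2 28.4-fold. Sln and Myh3, genes of muscle in development, dropped below background at 5 W (at least 150-fold and 63.6-fold lower), as did the cartilage collagen Col10a1 (at least 34.1-fold) and Afp (at least 37.4-fold), which at P0 had been at 8.46, 13.15 and 7.55. Muscle markers differed between arrays of one stage, and their part in Sln and Myh3 was not tested.

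The connective tissue genes split. Of 23 fibrillar and associated collagen genes, 4 were higher and 8 lower (median -0.51). Col2a1, a cartilage collagen, fell by 3.17 (14.25, 14.16 and 14.16 against 11.06, 11.79 and 10.19) and Col6a3 by 2.05, while the collagen cross-linking enzyme gene Lox rose 6.67-fold and Col15a1 6.45-fold. Col1a2 and Sparc stayed near 18 at both stages, with changes of -0.46 (adjusted p = 0.106) and 0.05 (adjusted p = 0.815). Of 20 genes for the basal lamina and its receptors, 2 were higher and 3 lower. Lama5 rose 4.68-fold (10.54, 10.11 and 10.16 against 12.83, 12.26 and 12.40), whereas Lama1, Nid2 and Lama4 fell by 2.55, 1.67 and 1.54. Itgb4, the laminin receptor subunit of mature Schwann cells and perineurium, rose 2.81-fold.

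In the list of endoneurial fibroblast and proteoglycan genes 4 of 16 were higher and 3 lower (median 0.58). Ogn (osteoglycin), a small leucine-rich proteoglycan gene, rose 22.5-fold from 13.11, 12.73 and 12.93 to 17.37, 17.38 and 17.51 (adjusted p = 4.77e-05), and Prelp of the same family rose 2.96-fold, while Aspn, above background on 2 of 3 arrays at 5 W, changed by -1.86 (-1.07 with normexp). Of 15 genes of perineurium and meninges, 2 were higher and 6 lower (median -0.65). Aldh1a2, Slc6a13 and Slc22a6, markers of meningeal cells, fell by 1.91, 1.69 and 1.64, and the glucose transporter gene Slc2a1, shared with perineurium and vessel barriers, rose 4.43-fold. Endothelial genes had 5 higher and 2 lower of 15 (median 0.16). The barrier transporters rose, Slco1a4 40.7-fold (6.26, 5.65 and 5.90 against 11.12, 11.78 and 10.96, with 2 of 3 arrays above background at P0), the lipid transporter Mfsd2a 12.2-fold (11.11, 10.63 and 11.07 against 14.43, 14.64 and 14.57) and the efflux pump Abcb1a 3.79-fold. The tight junction gene Cldn5 stood at 12.62, 14.17 and 14.08 against 12.78, 14.24 and 13.59 (-0.08 ± 0.53, adjusted p = 0.913).

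Immune genes rose in several lists. Of 16 macrophage genes, 9 were higher and none lower, with a median of 1.26. Csf1r, the receptor on which macrophages depend, rose 2.60-fold (13.05, 13.21 and 13.25 against 14.52, 14.41 and 14.71), Adgre1 3.30-fold, the haptoglobin receptor Cd163 5.18-fold, Cd14 4.71-fold and lysozyme (Lyz2) 3.99-fold. The summed signal of the 16 markers lay between 15.00 and 15.28 on the log2 scale at P0 and between 16.59 and 16.81 at 5 W. Genes of antigen presentation rose in 16 of 18 cases, with none lower and a median of 2.46. The class II chaperone subunits H2-DMb1 and H2-DMa rose 213-fold and 35.6-fold, and the invariant chain Cd74 39.4-fold, from 6.53, 6.37 and 6.54 to 11.31, 12.21 and 11.83. The class II chain H2-Aa was not above background on any P0 array and reached 8.23, 9.48 and 9.54, at least 20.9-fold higher, and the class I genes H2-K1 and B2m rose 6.53-fold and 3.03-fold. Genes of the H2 family are close in sequence, so probes of one may bind transcripts of another.

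Of 20 interferon-stimulated genes, 14 were higher and none lower (median 1.62). Ifit3, an antiviral effector, measured 8.80, 9.90 and 9.61 at P0 and 12.52, 11.80 and 12.96 at 5 W, a 7.93-fold rise (adjusted p = 0.0017). Oas2 rose 6.31-fold and the GTPase gene Iigp1 5.18-fold, while Isg15 stood at 11.96, 12.28 and 11.30 against 13.84, 12.06 and 14.10 (adjusted p = 0.0743). In Isg15 5 W replicate 2 lay within the P0 range. Without 5 W replicate 2 the list had 18 genes higher, and without P0 replicate 3 it had 9. The interferon-stimulated response element reads GAAA, any 2 bases and GAAA again, and either strand of 8 of 14 promoters of this list held it (57.1%), against 3.04% of all promoters. The promoters of Ifit3 and of Ifit1, a neighbouring gene chosen after its values were seen (2.17, adjusted p = 0.0122), each hold it 2 times and are shown with the element in capitals.
Ifit3, chr19:34583279-34583528, plus strand: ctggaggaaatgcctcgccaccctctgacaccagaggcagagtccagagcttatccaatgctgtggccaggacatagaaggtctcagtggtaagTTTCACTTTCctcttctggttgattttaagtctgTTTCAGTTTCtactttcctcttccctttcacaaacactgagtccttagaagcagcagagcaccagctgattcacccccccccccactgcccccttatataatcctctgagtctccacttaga
Ifit1, chr19:34640639-34640888, plus strand: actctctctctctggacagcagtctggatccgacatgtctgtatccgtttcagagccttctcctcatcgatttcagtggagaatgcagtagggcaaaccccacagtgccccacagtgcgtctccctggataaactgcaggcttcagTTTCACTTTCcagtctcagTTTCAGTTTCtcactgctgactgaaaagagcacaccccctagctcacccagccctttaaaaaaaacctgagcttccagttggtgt

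The same search was run on promoters of the sterol genes, whose transcription SREBP and NF-Y are known to drive together. The SREBP site TCACNCCAC was found in 1 of 18 promoters (5.56%, against 1.04% of all). CCAAT was found in 16 of 18 (88.9%) and in 11 of 13 promoters of antigen presentation genes (84.6%), against 34.5% of all. Whether these factors acted on the genes was not tested. Other spellings of the SREBP site were not searched. The promoters of Hmgcs1, which held both motifs, and of Sc5d, the most strongly rising of the sterol genes, are shown with these motifs in capitals.
Hmgcs1, chr13:119690101-119690350, plus strand: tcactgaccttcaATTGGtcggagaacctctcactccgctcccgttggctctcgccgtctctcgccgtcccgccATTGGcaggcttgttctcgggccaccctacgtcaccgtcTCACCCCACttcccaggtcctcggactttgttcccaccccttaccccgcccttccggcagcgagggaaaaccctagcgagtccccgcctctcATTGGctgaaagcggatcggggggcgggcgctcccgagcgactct
Sc5d, chr9:42264301-42264550, minus strand: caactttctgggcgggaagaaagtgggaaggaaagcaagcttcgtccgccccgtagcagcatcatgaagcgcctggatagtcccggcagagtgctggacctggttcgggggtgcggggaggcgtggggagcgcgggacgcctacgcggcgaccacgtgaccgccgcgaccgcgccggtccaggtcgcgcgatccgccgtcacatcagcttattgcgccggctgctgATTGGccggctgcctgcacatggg

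Complement genes were higher in 6 of 12 cases and lower in none (median 1.37). C4b, a complement component of the classical pathway, rose 28.3-fold (9.50, 9.86 and 9.70 against 14.59, 14.60 and 14.33, adjusted p = 4.77e-05), and the membrane regulators Cd59a and Cd55 10.2-fold and 4.37-fold. Of 7 mast cell genes tested, 3 were lower and none higher, among them the chymase Cma1 (8.29, 7.93 and 8.93 against 5.70, 5.67 and 5.96, a change of -2.61, or -1.58 with normexp) and Cpa3, which was not above background at 5 W (at least 5.61-fold lower). Of 10 lymphocyte genes, 3 were higher, among them Nkg7, above background on 1 of 3 arrays at P0 (a change of 3.20, or 1.28 with normexp), while the T cell genes Cd3e and Cd4 changed by 0.47 (adjusted p = 0.361) and -0.24 (adjusted p = 0.52). The neutrophil list had 4 higher and 1 lower of 10, with Mpo up 5.54-fold and the abundant S100a8 at 12.43, 12.83 and 12.50 against 12.96, 12.68 and 12.80 (adjusted p = 0.358). The 8 erythroid genes tested changed by between -1.26 and -0.01 (limma adjusted p from 0.0609 to 0.992), and haemoglobin Hbb-b2 was highest on P0 replicate 1 (16.61, against 14.99 and 14.96).

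**Figure D4:**
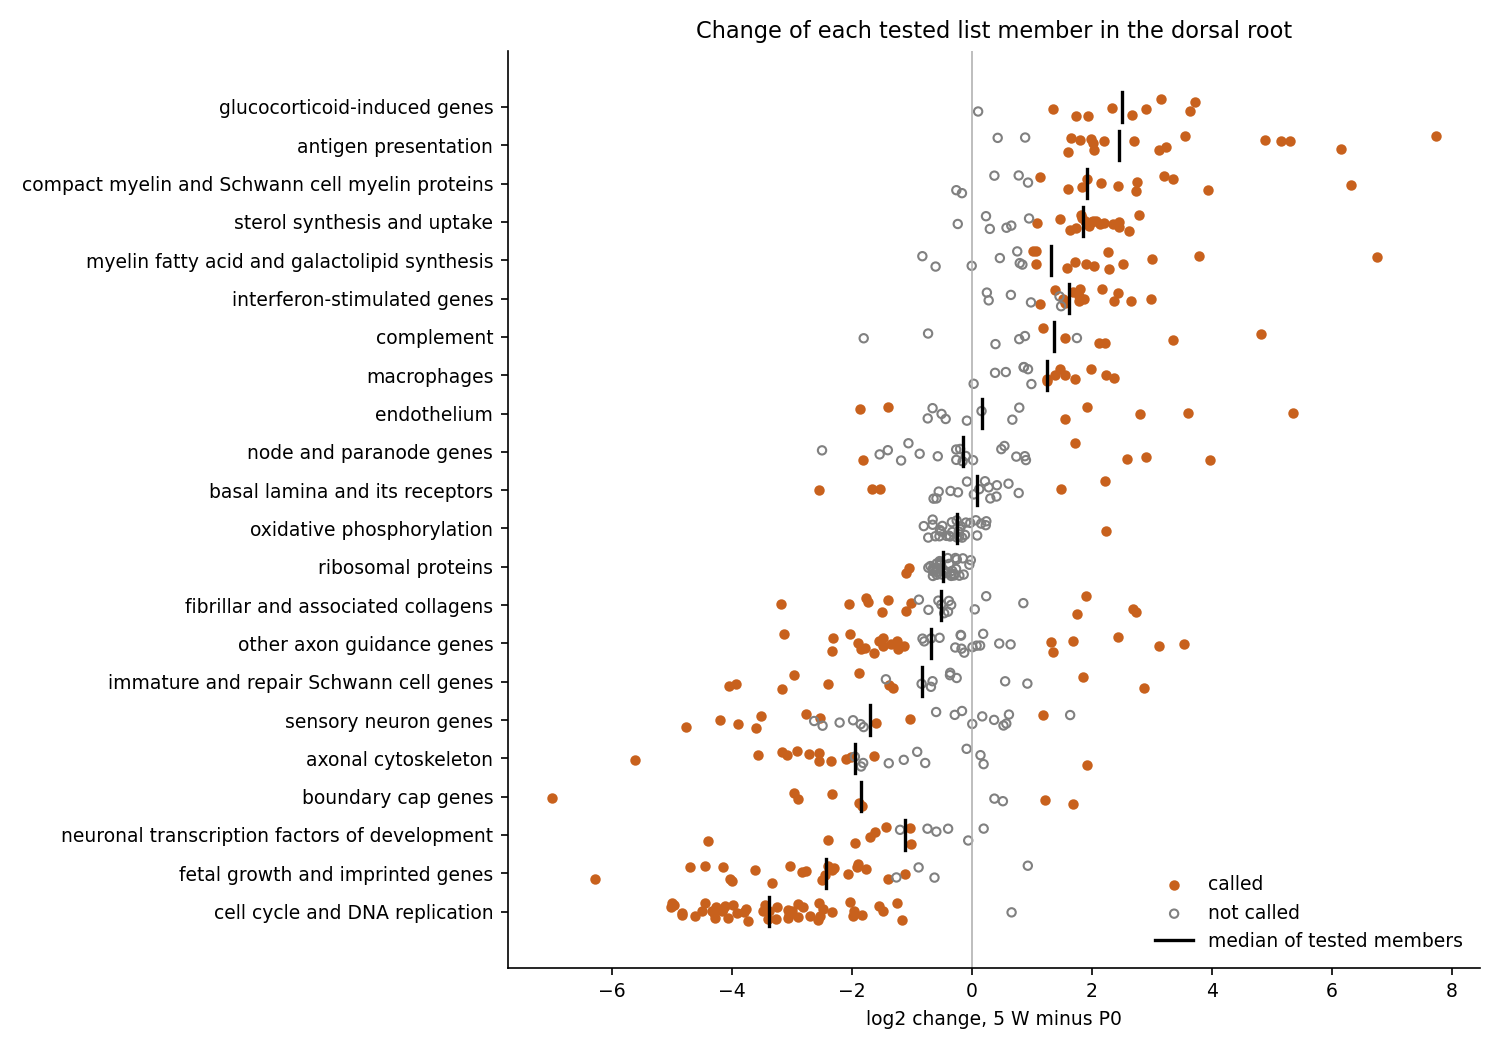
Log2 change from P0 to 5 W (x axis) of each tested member of 22 gene lists (y axis), with called genes filled, other genes open and the median of each list as a black bar. All members but 1 of the cell cycle list lie to the left of 0, and the medians of the glucocorticoid, antigen presentation, myelin protein and sterol lists lie between 1.86 and 2.51.

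Neuronal genes fell in the root, with a wide spread between the 5 W arrays. Of 23 genes of the axonal cytoskeleton and its assembly, 12 were lower and 1 higher (median -1.95). Dcx, a microtubule protein of growing neurites, was lower (9.96, 10.29 and 9.42 against 3.97, 5.86 and 3.01), with 2 of 3 arrays above background at 5 W and a change of -5.61, or -3.44 with normexp. Crmp1 fell by 3.57 and the growth cone gene Gap43 by 3.16 (13.15, 14.33 and 12.87 against 10.31, 11.50 and 9.07). Tuba1a stayed between 17.04 and 17.41 on all arrays, and Sncg, synuclein gamma of sensory neurons, rose 3.80-fold (14.39, 15.15 and 14.14 against 16.58, 16.25 and 16.63). Without P0 replicate 2 the list had 8 genes called.

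Of 26 sensory neuron genes, 9 were lower and 1 higher (median -1.70). The gene called higher was the sensory neuron marker Pou4f1, with a change of 1.19. Its call was lost without P0 replicate 2, P0 replicate 3, 5 W replicate 1 or 5 W replicate 3 (limma adjusted p from 0.0655 to 0.0783). Isl1, a transcription factor of sensory and motor neurons, was lower (9.01, 10.20 and 8.71 against 6.25, 4.50 and 2.88), with 1 of 3 arrays above background at 5 W and a change of -4.76, or -2.80 with normexp. Scn10a, the sodium channel of nociceptors, fell by 4.19 (12.50, 13.72 and 11.98 against 10.72, 9.13 and 5.79, adjusted p = 0.0307). That call was lost without any 1 of the P0 arrays or without 5 W replicate 2, with adjusted p between 0.0534 and 0.0967. Calca, the peptide CGRP, stood at 13.25, 14.86 and 13.13 against 13.66, 12.33 and 8.64 (adjusted p = 0.198). In Isl1, Scn10a and Calca, 5 W replicate 3 was the lowest array. How far the neuronal content of that array bears on the falls was not tested. The median signal on 5 W replicate 3 was 45.4, against 88.9 and 170.7 on 5 W replicates 1 and 2. That array was also scanned on a different date from the rest of the 6. The bearing of signal and scan date on the falls was not tested. The list had 6 calls without P0 replicate 1 and 4 without P0 replicate 2. Its summed signal lay between 15.65 and 16.90 on the log2 scale at P0 and between 15.63 and 16.45 at 5 W.

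Of 9 motor neuron genes tested, 2 were higher and 5 lower (median -1.54), and 2 were called without P0 replicate 2. Chodl, a marker of fast motor neurons, fell by 3.99 (10.76, 10.53 and 9.85 against 6.74, 6.79 and 5.61). The motor neuron marker Chat was called higher by 1.64. Its call was lost without P0 replicate 2 or P0 replicate 3 (limma adjusted p = 0.0584 and 0.0591). Transcription factors of neuronal development fell in 8 of 14 cases with none higher (median -1.11), with Sox11 down by 4.39 (9.85, 9.98 and 9.73 against 5.59, 6.07 and 4.71, with 2 of 3 arrays above background at 5 W), Hoxd10 by 2.40, Pax3 by 1.95 and Sox4 by 1.70. Boundary cap genes, which mark the cells that guard the root entry zone in the embryo, had 2 higher and 6 lower of 10 (median -1.85). The boundary cap protease Prss56 measured 9.76, 10.97 and 10.07 at P0, 6.88 on average at 1 W, and was not above background at 5 W, at least 54.7-fold lower. Wif1, a Wnt inhibitor, fell by 2.89.

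Axon guidance genes were called lower more often than higher, whereas over all genes tested 15.5% were higher and 11.8% lower. Of 10 Slit and Robo genes, 1 was higher and 5 lower (median -0.94), with 3 called without P0 replicate 2. Slit2, the repulsive ligand, rose 2.31-fold from 11.52, 11.51 and 11.75 to 12.85, 12.71 and 12.84 (adjusted p = 0.00175), although another probe of the gene was called lower. Its receptor Robo1 fell by 2.44 (10.35, 10.58 and 10.92 against 8.05, 8.62 and 7.85) and the adaptor Srgap1 by 2.06, while Slit3 stood at 8.43, 8.02 and 8.60 against 7.82, 7.55 and 8.48 (adjusted p = 0.306). Of 37 other guidance genes, 6 were higher and 16 lower (median -0.68). Sema5a and Sema4d rose 11.6-fold and 8.75-fold and the semaphorin receptor Plxnb1 5.40-fold, and Efna5 fell by 3.13 (12.69, 12.77 and 12.69 against 9.39, 9.73 and 9.63) and Sema6a by 2.32.

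Synaptic genes were detected at low to moderate levels, and the number called in each list depended on single arrays. Of 13 GABAA receptor subunits, 1 was higher and 1 lower. Gabrb2 fell by 2.62 ± 0.41 (9.31, 9.61 and 9.37 against 6.84, 7.64 and 5.94, adjusted p = 0.00337), and Gabra3 rose 2.19-fold (9.02, 8.73 and 8.86 against 9.42, 10.62 and 9.96, adjusted p = 0.0268), a call lost without any 1 of the P0 arrays (adjusted p from 0.0557 to 0.0831), without 5 W replicate 2 (a change of 0.82) or without 5 W replicate 3 (adjusted p = 0.0545). Gabrg3 was not called (adjusted p = 0.237). Without 5 W replicate 2, the highest 5 W array in this list, 6 subunits were called lower, and without P0 replicate 1 or P0 replicate 3 only 1 subunit was called. Of 16 ionotropic glutamate receptor genes, 2 were higher and 2 lower, against 7 called without 5 W replicate 2. Gria2 and Grik4 fell by 2.37 and 2.01, and Grik3 and Gria3 rose by 1.24 and 1.22. The calls of Gria2, Grik3 and Gria3 were each lost in at least 1 fit that left out 1 array. Of 12 neurexin and neuroligin genes and their partners, 1 was higher and 4 lower (median -0.96), and from 2 to 3 were called without any 1 of the arrays other than 5 W replicate 2. Nrxn2 fell by 1.54 (adjusted p = 0.0275), a call lost in 4 of the 6 fits that left out 1 array (adjusted p from 0.0535 to 0.0838), and Lrrtm1 by 1.86. Nrxn3, Nlgn1 and Nlgn3 changed by -1.04, -0.80 and -0.63 and were not called. Unc13c, a synaptic vesicle priming gene, fell by 1.80 (10.34, 10.54 and 10.86 against 8.19, 9.38 and 8.77), and Npy, a neuropeptide, stood at 10.21, 9.35 and 9.56 against 7.83, 9.21 and 6.53 (adjusted p = 0.0583).

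Of 23 potassium channel genes of glia and axons, 4 were higher and 2 lower. Kcnk1, a two-pore domain channel, rose 44.4-fold (8.76, 7.89 and 7.92 against 13.40, 13.89 and 13.69) and the inward rectifier Kcnj2 3.14-fold. Kcna6 stayed between 14.55 and 15.23 on all arrays. Trophic factor genes had 3 higher and 4 lower of 14. Beside Cntf, the fibroblast growth factors Fgf1 (12.12, 12.92 and 12.04 against 16.39, 16.46 and 16.60) and Fgf7 rose 17.4-fold and 13.7-fold. Ntf3, neurotrophin 3, measured 7.51, 8.77 and 6.95 at P0 and was not above background at 5 W, at least 9.51-fold lower, and the growth factors Mdk and Ptn fell by 2.01 and 1.89.

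Markers of central glia and of other tissues were part of the difference. Of 12 oligodendrocyte genes tested, 6 were higher and 1 lower (median 1.56), with a summed signal between 15.98 and 16.04 on the log2 scale at P0 and between 15.60 and 16.46 at 5 W. Mobp, a protein of central myelin, was not above background at P0 and reached 12.01, 12.44 and 11.32 at 5 W, at least 150-fold higher. Klk6 and Hapln2 were likewise above background at 5 W and not at P0 (at least 32.3-fold and 4.90-fold higher), and Nkx6-2, a transcription factor of oligodendrocytes, was called higher by 2.63 with 2 of 3 arrays above background at P0 (1.69 with normexp). Cldn11, shared with perineurial and arachnoid barriers, fell by 1.35, and Olig2, the lineage factor, was above background on 2 of 3 arrays at each stage and was not tested. Of 14 astrocyte genes, 6 were higher and 1 lower (median 0.89), with Hepacam up 9.07-fold and Ntsr2 7.29-fold. Gfap, also made by non-myelinating Schwann cells, measured 9.64, 10.20 and 10.87 against 12.11, 13.18 and 10.99 (adjusted p = 0.0401), a call lost in 5 of the 6 fits that left out 1 array (adjusted p from 0.0518 to 0.114). In the markers named here 5 W replicate 2 was highest except in Hepacam, and the part of tissue near the spinal cord in these rises was not tested.

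Of 16 skeletal muscle genes, 2 were higher and 1 lower, and without 5 W replicate 1 there were 10 calls. Myh4, myosin of adult fast fibres, measured 7.60, 3.89 and 2.58 at P0 and 15.19, 11.52 and 8.75 at 5 W (adjusted p = 0.0223), with 2 of 3 arrays above background at P0, a call lost without P0 replicate 2 or P0 replicate 3 (adjusted p = 0.071 and 0.0733). Tnnc2 stood at 15.50, 14.55 and 14.15 against 15.32, 11.28 and 11.17 (adjusted p = 0.165). The summed signal of the list ranged from 16.01 to 17.31 at P0 and from 13.92 to 17.84 at 5 W. Of 10 adipocyte genes, 3 were lower and none higher. Fabp4 fell by 3.65 (11.74, 10.87 and 14.21 against 9.15, 8.60 and 8.12), and Cidec was at 8.36, 6.31 and 12.62 against 6.61, 6.56 and 6.12 (adjusted p = 0.184), with P0 replicate 3 highest in both. The complement factor gene Cfd, also an adipocyte product, showed the same order of arrays at P0 (8.40, 6.40 and 14.69).

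Few ribosomal protein and oxidative phosphorylation genes were called. The 5 W mean of each of the 35 ribosomal protein genes lay below its P0 mean, by -1.09 to -0.02 (median -0.48), and 2 of them were called lower, among them Rps2, which fell 2.13-fold (16.12, 16.08 and 16.18 against 15.02, 15.04 and 15.04), and 1 was called without 5 W replicate 1. Of 30 genes of oxidative phosphorylation, 1 was higher, Cox7a1, the subunit of heart and muscle, at 4.70-fold (median of the list -0.25), and none lower. Of 21 genes of glycolysis and lactate transport, 3 were higher and 2 lower, against 3 called in all without P0 replicate 3. The glycolysis counts were near the shares over all genes, 15.5% higher and 11.8% lower. Those of the ribosomal protein and oxidative phosphorylation lists lay below these shares. Gapdh differed by 0.05 (17.01, 17.33 and 17.16 against 17.31, 17.32 and 17.00, adjusted p = 0.856), and Pfkp fell by 1.69.

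Genes that glucocorticoids induce rose in 9 of 10 cases, with none lower and a median of 2.51. Tsc22d3 (GILZ) rose 13.2-fold (12.59, 12.65 and 12.37 against 15.77, 16.50 and 16.52, adjusted p = 0.000155), Sult1a1 12.4-fold, the metallothionein genes Mt2 and Mt1 8.89-fold and 5.07-fold, Pdk4 7.49-fold and Sgk1 3.35-fold. Their means at 1 W lay close to those at P0 in Tsc22d3 (12.37 against 12.5) and Sult1a1 (11.89 against 12.3), and at 3 W close to those at 5 W. Per1, which also follows the clock, did not differ (0.11, adjusted p = 0.824). Of 15 clock genes, 5 were higher and none lower, with the output factor Dbp up 7.83-fold (11.60, 10.49 and 11.09 against 15.00, 12.92 and 14.17); the time of day of sampling is not given in the sources used here. Of 17 heat shock and immediate early genes, 3 were higher, Zfp36 among them (4.51-fold), and 6 without 5 W replicate 2. Of 16 genes of DNA methylation and Polycomb repression, 3 were higher and 3 lower, with Cbx7 up 17.6-fold (7.26, 7.24 and 7.08 against 10.95, 12.07 and 10.97), Ezh1 up 4.17-fold and Uhrf1, which carries methylation through replication, down by 4.07. Of 5 sex-linked genes tested, Xist was called lower (7.54, 7.31 and 8.07 against 4.03, 7.05 and 4.84, adjusted p = 0.0417). That call was lost in 5 of the 6 fits that left out 1 array (adjusted p from 0.0834 to 0.121), and Xist was above background on 3 of 3 arrays at P0 and on 1 of 3, replicate 2, at 5 W. The change of Xist was -1.19 with normexp. The Y-linked genes Ddx3y, Eif2s3y, Kdm5d and Uty changed by 0.91, 0.55, 0.23 and -0.98 and were not called. Whether the sexes in the pools differed was not tested.

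Genes called in the dorsal root mostly changed in the same direction in the ventral root. Of the 4093 genes called in the dorsal root, 4041 (98.73%) did so in the EN fibres. The share over all genes tested was not counted, and a shared direction does not measure the size of a change. The comparison is limited further, as arrays of AN and EN with the same number and stage lay on the same slide and deviated together. In a fit over the 12 AN and EN arrays of both stages, the difference between the AN change and the EN change was called for 46 probes and for 23 genes (0.154% of those tested), 14 with the larger value in AN and 9 with the smaller. With the replicate number as a block within each stage, 330 genes were called (2.20%), 216 larger and 114 smaller in AN, and all 23 were among them. Without AN 5 W replicate 3 the unblocked fit called 374 probes, and without any other 1 of the 12 arrays between 21 and 41. At an unadjusted limma p below 0.05 with a fold above 2, 784 genes differed. With 3 arrays per group, a difference that was not called is not shown to be absent.

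Among the genes with the larger value in AN, Kcnj10, the glial potassium channel Kir4.1, changed by -1.02 in AN (14.35, 13.89 and 14.15 against 13.14, 13.45 and 12.75) and by -4.24 in EN, a difference of 3.22 ± 0.27 (adjusted p = 0.00203, with the block 0.0147). Its own call in AN was lost without P0 replicate 1, P0 replicate 3 or 5 W replicate 3 (changes of -0.90, -1.01 and -0.83). Gpr37, a glial receptor gene, fell by 1.25 in AN and by 3.87 in EN. The kinesin gene Kif26b fell by 3.59 in AN, and its EN levels at 5 W (4.11, 3.77 and 4.16) lay under the lowest signals well above background on those arrays (4.18, 5.62 and 5.33), so that the size of its difference was not measured. Slitrk5, a neuronal adhesion gene, changed by 0.24 in AN and by -2.32 in EN, a difference of 2.57 (adjusted p = 0.00471). The difference was also called for Klk6, but as this gene was not above background on any AN array at P0, which root rose more was not measured. Ncam1 fell by 1.87 in AN and by 3.35 in EN (adjusted p of the difference 0.0461), and Erbb3 by 0.32, not called, and by 1.46 (adjusted p of the difference 0.0394).

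In the other direction, the brightest probe of Slit2 rose by 1.21 in AN and by 3.14 in EN. The difference was -1.93 ± 0.20 (adjusted p = 0.00602, with the block 0.0124). Another probe of Slit2 was called lower in AN, so the direction for this gene depends on the probe. Vwa5b2 fell by 2.26 in AN (10.97, 10.87 and 10.70 against 8.81, 8.60 and 8.35) and changed by 0.25 in EN, and the axonal kinesin gene Kif5c fell by 1.45 in AN (14.22, 14.39 and 13.95 against 12.80, 12.90 and 12.51) and changed by 0.95 in EN. Duoxa1, above background on 2 of 3 AN arrays at 5 W, changed by -3.45 in AN (-1.95 with normexp) and by -1.72 in EN, and the aldehyde dehydrogenase gene Aldh1a7 changed by 0.88 in AN and by 2.49 in EN.

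**Figure D5:**
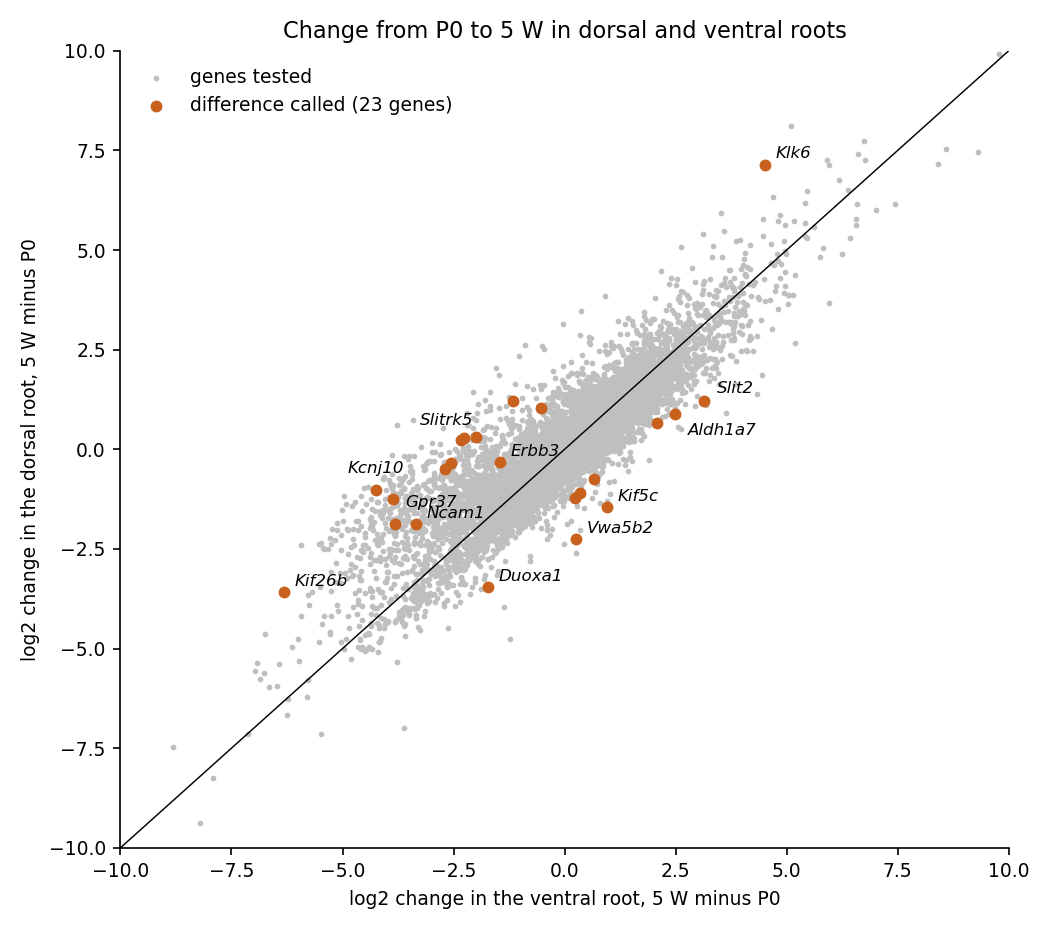
Log2 change from P0 to 5 W in the dorsal root (y axis) against that in the ventral root (x axis) for each of 14979 genes tested (grey), with the line of equal change and the 23 genes whose difference was called (orange). Kcnj10 and Gpr37 lie above the line with the larger falls in the ventral root, and Slit2, Vwa5b2 and Kif5c lie below it. Each gene is placed by its brightest probe, and another probe of Slit2 was called lower in the dorsal root. The positions of Klk6 and Kif26b rest in part on levels below background.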

How the data were processed

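Expression was measured in L4-L6 dorsal root (AN) fibres of C57BL/6 mice on 1-colour Agilent arrays, with fibres of several mice pooled by nerve and age. The intensity values that the authors deposited were read from the scanner with Agilent Feature Extraction 10.7.1.1. The log2 values that the authors deposited for the same arrays had been quantile normalized and were used as they stand. Probes were named by the gene name in the scanner output, kept where well above background on all 3 arrays of either stage, and tested with lmFit and eBayes of limma 3.58.1 (R 4.3.3) on the 6 AN arrays, with Benjamini-Hochberg adjustment over all probes tested, an adjusted p threshold of 0.05 and a fold threshold of 2. Each gene was represented by its brightest tested probe. The AN and EN changes were compared in 1 fit over 12 arrays. AN and EN arrays with the same number deviated together (r from 0.455 to 0.603), which the data and not the labels show, so the replicate number within a stage was also used as a block. As nothing states which mice went to which array, p-values measure the spread between arrays of pooled tissue. The number of arrays limits the precision.

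For a gene above background on no array of a stage, a lower bound of the fold was computed against the lowest signal well above background. Genes named were the 14 largest rises and falls among genes called and measured on every array, the 6 largest bounds in each direction, up to 6 per gene list, genes that the study treats and the 5 largest called AN-EN differences in each direction. The members and lists were chosen with earlier results of these data known. Promoters came from RefSeq (GRCm38.p6). Alternatives were other normalizations, filters, blocks, array weights, thresholds and fits without 1 array. The fits were tested on simulated data. Python 3.11.15, pandas 2.3.3, numpy 2.4.6 and matplotlib 3.10.9 were used. Some items are not reported here.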

Additional observations from a re-analysis of the deposited data

Results flagged for a closer look

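The change from P0 to 5 W differed between the dorsal and the ventral root, by a limma test of the difference itself, for 46 probes. By the AN change minus the EN change on the log2 scale, Kcnj10 differed by 3.22, Gpr37 by 2.62 and Slitrk5 by 2.57. The fitted values of 2.72 for Kif26b and 2.62 for Klk6 rest on levels below background, in EN at 5 W and in AN at P0, and are not measured differences. Ncam1 differed by 1.48 and Erbb3 by 1.14. In the other direction the difference was -1.61 for Aldh1a7 and -1.73 for Duoxa1, which was above background on 2 of 3 AN arrays at 5 W. The difference was -1.93 for the brightest probe of Slit2, -2.40 for Kif5c and -2.52 for Vwa5b2. Another probe of Slit2 was called lower in AN.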

How the results depend on the processing

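Of 9167 probes called, 5046 higher and 4121 lower, the count became 5075 within the slide that held both stages (2699 higher, 2376 lower), 13856 without a fold threshold (6501 lower) and 4093 for genes in place of probes (2328 higher, 1765 lower). Normexp background correction gave 3256 higher. Without 1 array the count lay between 7713 and 9801, with 4371 to 5296 higher and 3342 to 4505 lower. The replicate block across stages gave 9466, but P0 and 5 W arrays share only a number (r from 0.098 to 0.406). The other alternatives stayed within 1.5 times. The cause was not tested.

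The AN-EN difference, called for 46 probes, was called for 90 with normexp, 24 without a filter on dim probes, 350 with all 24 arrays, 700 with slide as a fixed block, 212 with the replicate block, 298 with array weights, 1441 at an unadjusted p, and 611 with the block within each stage, which was chosen after seeing the data. Without 1 array it lay between 21 and 374. The cause was not tested.

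Of 227 named genes called, none reversed under 15 alternatives, 193 kept the call in all 6 fits without 1 array, 61 lost it within the slide, 9 with normexp and 4 with the replicate block. The counts of 14 lists moved by over 1.5 times without 1 array. Dim probes limit what can be measured, since a level below background is only a bound.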
